A study of Homo sapiens with 6 samples.

Results

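The interferon response and antigen presentation genes described here are 38 of the 20297 genes of a table of RNA levels in 22Rv1 cells. They were taken by symbol from a list in 3 classes. These classes were 8 regulators and RNA sensors, 22 antiviral effectors, and 8 genes of HLA class I and its machinery. The cells were treated with vehicle, with Drug_0120 (0120-0018 in the treatment protocol) or with Drug_CN27, and each of the 3 groups had 2 libraries of polyadenylated RNA. Both compounds are described as inhibitors of H1-10, a variant of linker histone H1, the protein that binds DNA between nucleosomes. Each was given at its own IC50, a concentration set by how strongly the compound inhibits. Neither the concentration nor the duration is given in the sources used here, and equal doses cannot be assumed. 22Rv1 is an established human prostate cancer line derived from a xenograft, and it is known to release a gammaretrovirus, XMRV, whose RNA was not analysed here. All 6 libraries came from this single line, and no label says whether the libraries of a group were separate cultures. P-values therefore reflect the spread between these libraries, which may be only technical.

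Type I and type III interferons bind receptors whose kinases phosphorylate STAT proteins. STAT2 joins IRF9 in a complex that binds the interferon-stimulated response element (ISRE) in the promoters of antiviral genes, while interferon gamma acts mainly through the gamma-activated site (GAS). Cells also start this programme from inside, when RIG-I (the product of DDX58) or MDA5 (the product of IFIH1) binds double-stranded RNA and signals to IRF3 and IRF7. HLA class I molecules present peptides to cytotoxic T cells. Their heavy chain needs the light chain B2M, the peptide pump TAP1 and TAP2, and the bridging chaperone tapasin (TAPBP), and the transactivator NLRC5 acts on the promoters of these genes. In prostate cancer, low HLA class I is a known feature of tumours that T cells recognise poorly. Combined loss of several linker histone variants is known to raise interferon genes in breast cancer cells.

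Because interferon genes are known by a shared promoter element, the promoters are shown first. RefSeq promoters (GRCh38.p14, from 250 bases before to 50 bases after each start site) were given for 28 of the 38 genes. The ISRE core was searched as GAAA, any 2 bases and GAAA again, and for the other strand as TTTC, any 2 bases and TTTC, with overlapping matches kept. It was present at any start site for 19 of the 28 genes (67.9%). Counted alike, it was present for 4.38% of all 27305 genes and 3.69% of the tested genes with a promoter given. Counted by promoter, the share was 3.57% of all 35116 of that length. By class, 14 of 17 antiviral effectors, 4 of 6 genes of HLA class I and its machinery and 1 of 5 regulators held it. GAS was searched as TTCNNNGAA, which reads the same on both strands and was allowed to overlap the ISRE core. It was present at any start site for 9 of the 28 genes (32.1%), against 9.38% of all genes and 8.49% of the tested genes counted alike, and 7.66% of all promoters. A match is a description and not a bound site, and no match says only that these letters are not in the window.

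Whole promoters follow for ISG20 and IFITM1, the tested genes of the set with the largest rise with Drug_0120 and the largest fall with both compounds on the log2(TPM + 1) scale, and for TAPBP and HLA-C, which rose with Drug_CN27 and of which only TAPBP holds a match. Capitals mark the ISRE core on either strand. ISG20 is given at chr15:88638766-88639065 (plus strand), IFITM1 at chr11:313790-314089 (plus strand), TAPBP at chr6:33314029-33314328 (minus strand) and HLA-C at chr6:31272043-31272342 (minus strand).
ISG20: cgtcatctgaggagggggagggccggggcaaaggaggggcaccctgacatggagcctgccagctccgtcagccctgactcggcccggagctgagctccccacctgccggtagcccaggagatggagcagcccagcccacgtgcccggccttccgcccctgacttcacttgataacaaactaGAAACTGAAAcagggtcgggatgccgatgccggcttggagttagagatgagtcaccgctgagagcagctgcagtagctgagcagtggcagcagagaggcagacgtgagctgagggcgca
IFITM1: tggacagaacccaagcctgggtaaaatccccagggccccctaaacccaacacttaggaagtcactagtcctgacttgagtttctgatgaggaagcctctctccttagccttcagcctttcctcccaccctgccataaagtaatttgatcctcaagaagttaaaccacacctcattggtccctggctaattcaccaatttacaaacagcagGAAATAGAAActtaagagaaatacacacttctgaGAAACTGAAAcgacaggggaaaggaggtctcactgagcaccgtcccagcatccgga
TAPBP: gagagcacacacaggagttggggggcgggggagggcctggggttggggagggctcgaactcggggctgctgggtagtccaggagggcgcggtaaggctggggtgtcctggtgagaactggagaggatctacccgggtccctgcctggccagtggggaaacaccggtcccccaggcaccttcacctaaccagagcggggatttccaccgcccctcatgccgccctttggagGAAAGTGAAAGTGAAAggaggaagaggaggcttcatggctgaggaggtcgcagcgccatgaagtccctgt
HLA-C: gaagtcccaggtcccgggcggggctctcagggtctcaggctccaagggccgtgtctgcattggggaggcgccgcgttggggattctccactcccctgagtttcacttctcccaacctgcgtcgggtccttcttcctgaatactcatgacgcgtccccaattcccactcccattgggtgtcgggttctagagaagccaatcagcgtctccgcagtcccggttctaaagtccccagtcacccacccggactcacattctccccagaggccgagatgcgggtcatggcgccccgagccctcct

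Windows of 30 bases around the first match follow for 8 more genes whose levels went in different directions, to show the core in each. They lie at chr1:1013377-1013406 (plus) for ISG15, chr11:320890-320919 (minus) for IFITM3, chr12:112938324-112938353 (plus) for OAS3, chr19:17405738-17405767 (minus) for BST2, chr2:162318821-162318850 (minus) for IFIH1, chr15:44711366-44711395 (plus) for B2M, chr6:32853816-32853845 (minus) for TAP1 and chr6:32838775-32838804 (minus) for TAP2.
ISG15: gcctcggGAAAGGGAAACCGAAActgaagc
IFITM3: atgccagGAAAAGGAAActgttgagaaacc
OAS3: aagaaacGAAACTGAAAgcagggaatttcc
BST2: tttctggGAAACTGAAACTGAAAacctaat
IFIH1: aattcgcTTTCCTTTTCTGTTTCccgcggt
B2M: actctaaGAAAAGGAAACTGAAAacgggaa
TAP1: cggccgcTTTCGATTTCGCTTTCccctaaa
TAP2: gggaagcGAAAGCGAAAgctgcccgagccc
In ISG15, BST2, IFIH1, B2M and TAP1 overlapping matches share a run of capitals. A further IFITM3 match, starting at -35 from the start site, is cut by the end of the window and is not in capitals.

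**Figure D1:**
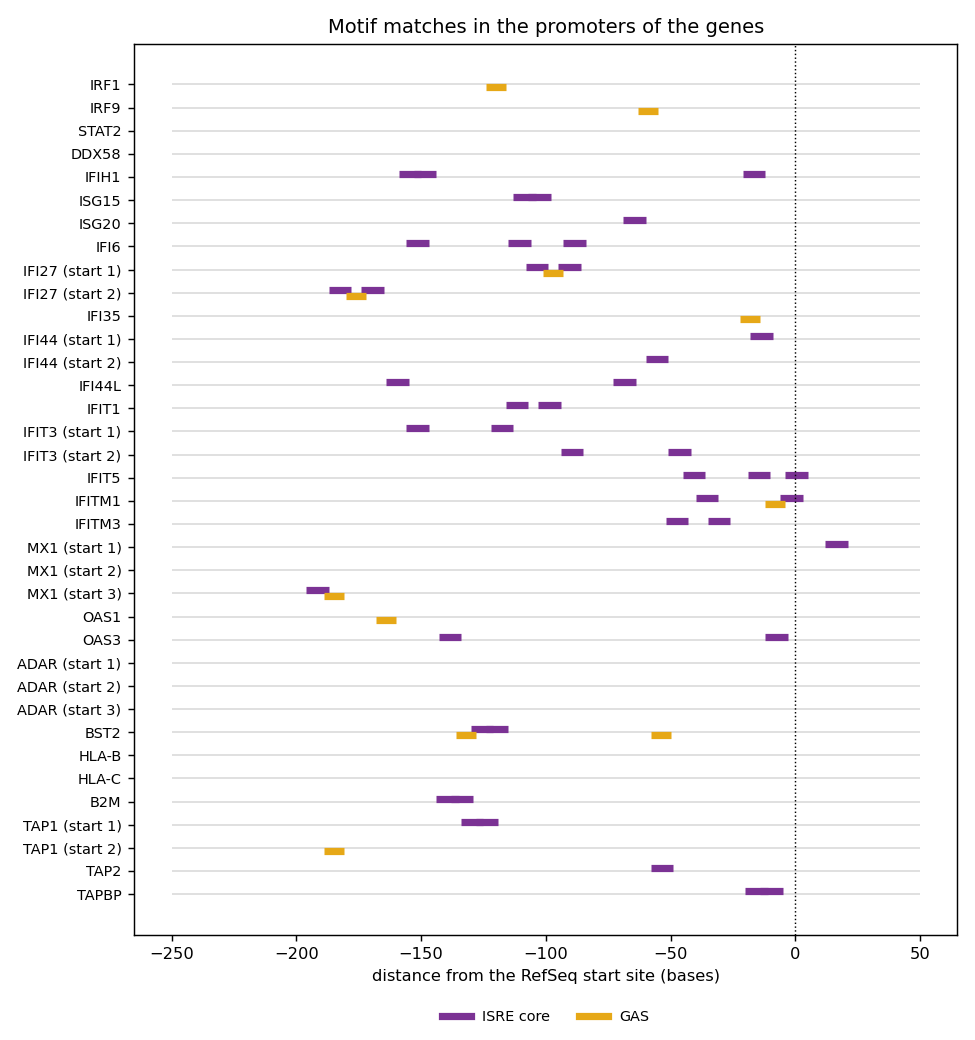
Position of each ISRE core (purple) and GAS match (yellow) in the RefSeq promoters, in bases from the start site (dotted line at 0), with a line for each start site of each of the 28 genes. The ISRE core lies in 14 of 17 effectors and in 1 of 5 regulators.

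Levels are in TPM, a share of transcripts scaled for their length, so levels can be compared between genes. Prostate epithelial markers read high in every group, with the 7 genes of the list summing to 2389 ± 9.73 TPM in vehicle, 1403 ± 1.54 TPM with Drug_0120 and 2406 ± 20.0 TPM with Drug_CN27 (SD, n = 2 libraries, as for every mean and SD given here). The 10 leukocyte markers summed to between 3.02 and 4.78 TPM in any library, with CD3D, CD3E and MS4A1 at 0 in all 6 and 8 of the 10 under 1 TPM on average. The 6 fibroblast markers summed to 32.7 ± 1.21, 29.4 ± 0.952 and 26.3 ± 1.44 TPM in the same order of groups, led by LUM at a mean of 19.7 TPM, and the 3 endothelial markers in the table stayed at or under 0.0163 TPM. Genes outside the table held 18.7% ± 0.83 of the TPM in vehicle, 28.4% ± 0.605 with Drug_0120 and 18.9% ± 0.859 with Drug_CN27. The median of all 13606 tested genes was -0.10 with Drug_0120 and 0.15 with Drug_CN27 on the log2(TPM + 1) scale, and changes of a class are given relative to it. Depth is lost in TPM, so it is unknown here and values carry no counting interval.

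In vehicle cells the set was already expressed, with large differences between genes. ISG15, a ubiquitin-like antiviral modifier, read 262 and 282 TPM, and ADAR, the enzyme that edits double-stranded RNA, read 175 and 163 TPM. B2M read 240 and 201 TPM and HLA-C 97.9 and 101 TPM. The classical interferon-inducible genes IFI44, IFI44L, IFIT1, IFIT2, IFIT3, MX2, OAS1, OAS2 and OASL lay at the bottom, between 0 and 1.032 TPM in the 6 libraries, with 13 of their 54 values listed at 0. The classes differed in how many genes could be tested. A test needed at least 1 TPM in at least 2 libraries, which all 8 regulators, all 8 genes of HLA class I and its machinery, but only 13 of the 22 antiviral effectors met. BST2 met it through vehicle alone and NLRC5 through Drug_0120 alone. BST2 therefore had to differ in comparisons with vehicle, and NLRC5 in comparisons with Drug_0120. Counts over the 29 tested genes are descriptions.

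**Figure D2:**
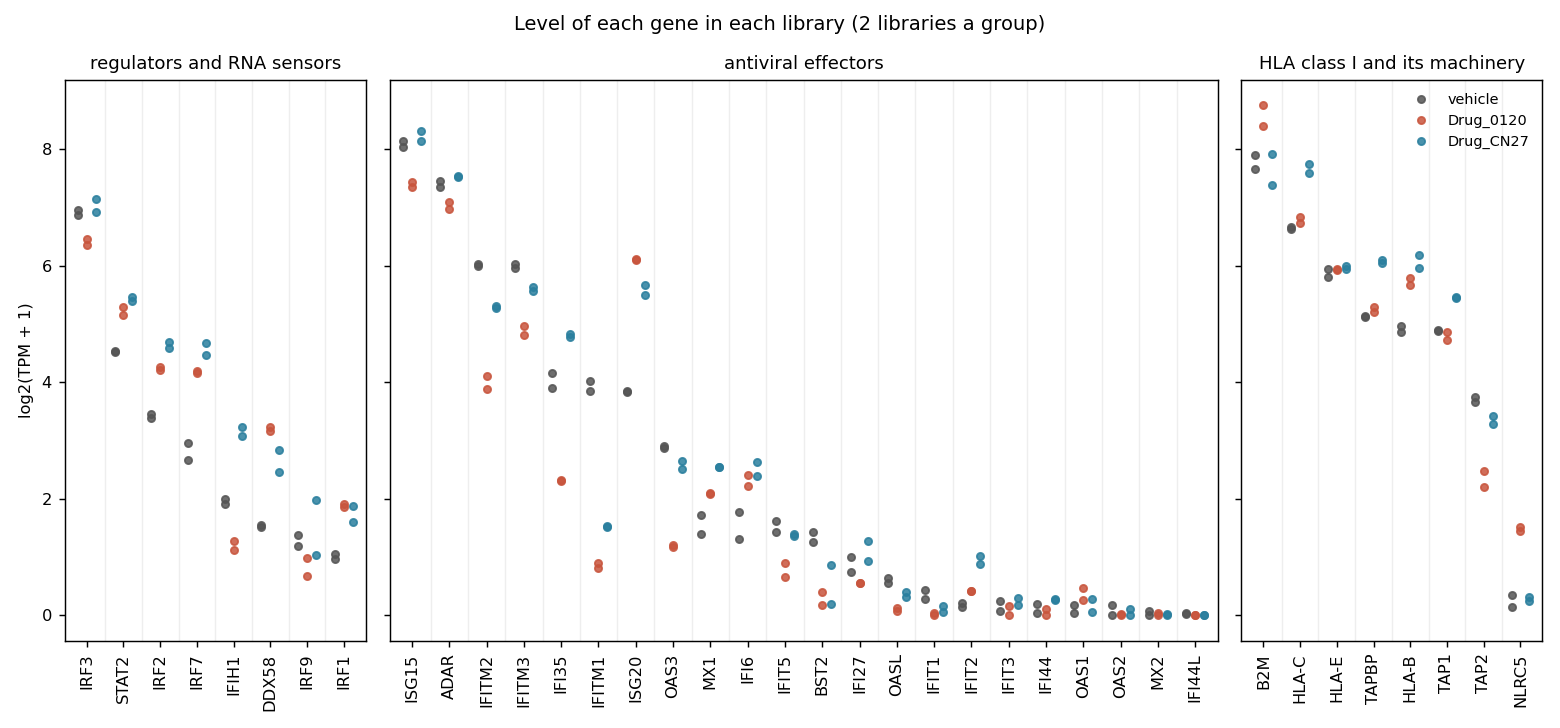
Level of each of the 38 genes in each library as log2(TPM + 1), by class, with 2 points a group (grey vehicle, red Drug_0120, blue Drug_CN27). The regulators sit mostly above vehicle with both compounds, the IFITM genes sit below it, and 9 effectors lie near 0 in all 6 libraries.

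Drug_0120 raised 11 and lowered 12 of the 29 tested genes (limma, adjusted p under 0.05 over all 13606 tested genes), and 6 were not called. That is 37.9% higher and 41.4% lower, where 36% of all tested genes were called higher and 45.5% lower, so the shares of the set as a whole lay near the background. In either direction, 81.5% of all tested genes were called. The calls fell unevenly over the classes. Among regulators and RNA sensors 5 rose and 2 fell, among antiviral effectors 3 rose and 9 fell, and among HLA class I and its machinery 3 rose and 1 fell. The class medians, less the median of all tested genes, were 0.86, -0.65 and 0.23 on the log2(TPM + 1) scale. The value for HLA class I was 0.65 after a correction for transcript GC content. At least 2-fold on this scale, 4 genes were higher and 7 lower, against a background of 11.5% and 20.2%. NLRC5 and BST2, which met the filter through a single group and had to differ here, are in these class and 2-fold counts. NLRC5 is among the 3 rises of HLA class I and its machinery, and BST2 among the 9 falls of effectors. In bulk RNA, a change in the share of cells that express a gene and a change in RNA per cell cannot be told apart.

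With Drug_CN27, 14 of the 29 tested genes rose and 6 fell, and 9 were not called. These shares of 48.3% and 20.7% lay beside 43.7% of all tested genes called higher and 26.6% called lower, or 70.4% in either direction. Regulators and RNA sensors rose in 6 of 8 cases with none lower, antiviral effectors rose in 4 and fell in 5 of 13, and HLA class I and its machinery rose in 4 and fell in 1 of 8. BST2, which met the filter through vehicle alone and had to differ here, is among the 5 falls of effectors. The relative class medians were 0.86, -0.02 and 0.18, and the effectors' value was 0.07 under quantile normalization. The HLA class I value was 0.30 after the GC correction. At least 2-fold, 7 genes were higher and 1 lower, against 7.33% and 4.82% of all tested genes. The comparisons of the compounds with vehicle share the same 2 vehicle libraries, so the values of a gene are given side by side and no overlap between them is taken as a result.

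**Figure D3:**
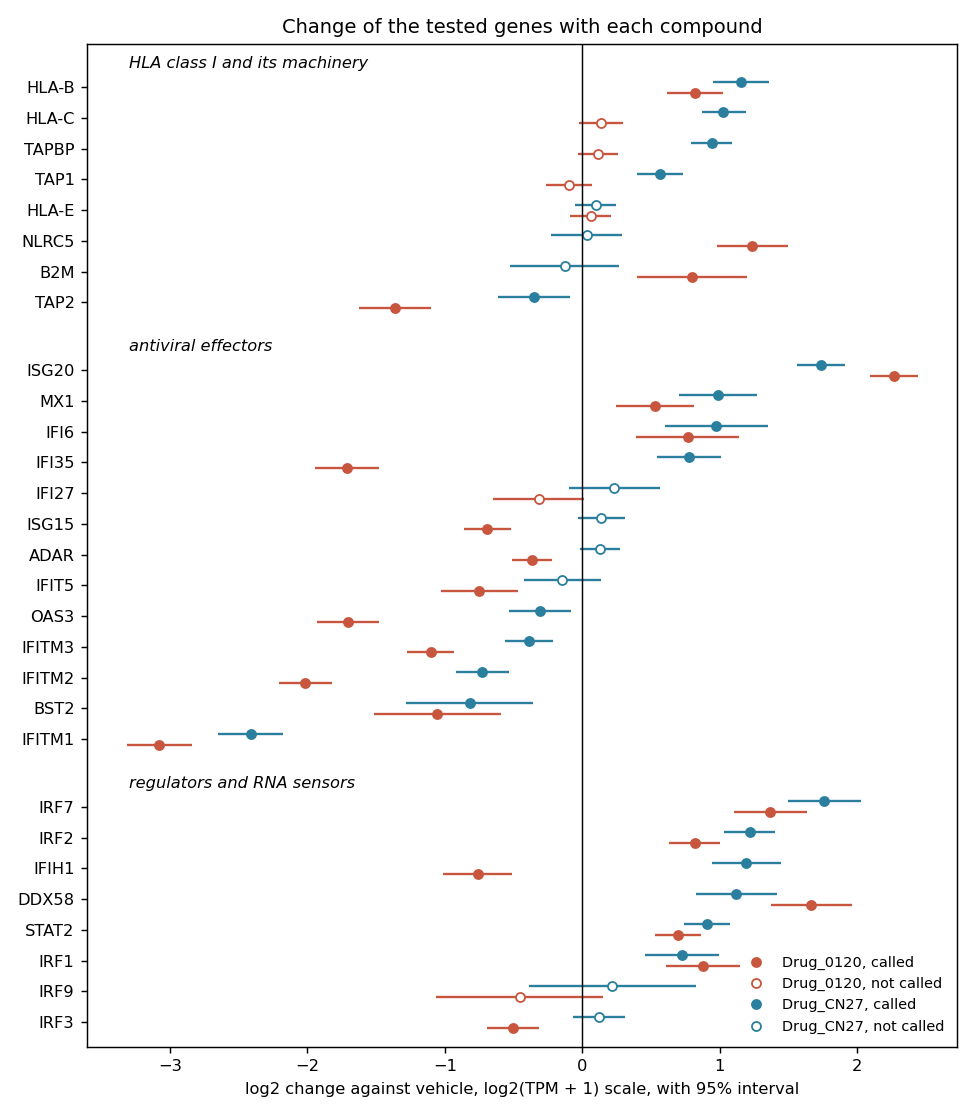
Change of each of the 29 tested genes against vehicle on the log2(TPM + 1) scale with its 95% interval, in red for Drug_0120 and blue for Drug_CN27, with filled points for called changes. Regulators lie mostly right of 0 with both compounds, IFITM1 lies farthest left, and IFI35 and IFIH1 lie on opposite sides of 0.

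IRF7, the factor that drives interferon production after infection, read 5.36 and 6.77 TPM in the vehicle libraries, 17.4 and 16.9 TPM with Drug_0120, and 21.2 and 24.5 TPM with Drug_CN27. Both treated groups lay above vehicle without overlap. The log2 change was 1.37 ± 0.12 (SE) with Drug_0120 (limma adjusted p = 6.07e-06) and 1.76 ± 0.12 with Drug_CN27 (limma adjusted p = 4.28e-06). IRF2, which competes with IRF1 for the same element, rose from 9.74 ± 0.353 TPM to 17.9 ± 0.503 and 24.0 ± 1.29 TPM. IRF1, an activator of HLA class I and antiviral genes, rose from 1.02 ± 0.0897 TPM to 2.70 ± 0.0937 TPM with Drug_0120 and 2.35 ± 0.435 TPM with Drug_CN27. Exons of C5orf56 and AC116366.3 overlap those of IRF1 on the opposite strand, and the strand setting of the counting is not known here.

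STAT2 read 22.3 and 21.9 TPM in the vehicle libraries, 38.1 and 34.7 TPM with Drug_0120, and 41.3 and 43.1 TPM with Drug_CN27. Every treated library was above both vehicle libraries, and the log2 changes were 0.70 ± 0.07 and 0.90 ± 0.07. Its partner IRF9 behaved less clearly, at 1.29 and 1.59 TPM in the vehicle libraries, 0.590 and 0.987 TPM with Drug_0120, and 1.05 and 2.93 TPM with Drug_CN27. It was not called against vehicle with either compound, and the 2 Drug_CN27 libraries lay on either side of the vehicle values. Without Drug_CN27 replicate 1, IRF9 was called higher with Drug_CN27 (log2 change 0.69), and without either Drug_CN27 library it was called lower with Drug_0120 (log2 change -0.46). The whole IRF9 transcript is contained in a longer annotated gene, AL136295.5, so its reads could be split and its level is uncertain.

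IRF3, the factor that RNA and DNA sensing activates first, was the most abundant regulator. It read 117 and 124 TPM in the vehicle libraries, 81.2 and 87.5 TPM with Drug_0120, and 121 and 141 TPM with Drug_CN27. The Drug_0120 libraries lay below vehicle (log2 change -0.51 ± 0.08, limma adjusted p = 0.000424), but the value was 0.054 and not called after the GC correction. With Drug_CN27 the groups overlapped and IRF3 was not called. It was called higher with Drug_CN27 without Drug_CN27 replicate 1 (0.23) and after the GC correction (0.17). Exons of BCL2L12 overlap IRF3 on the opposite strand.

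The RNA sensors went apart. DDX58 read 1.94 and 1.86 TPM in the vehicle libraries, 8.39 and 7.99 TPM with Drug_0120, and 6.17 and 4.53 TPM with Drug_CN27, so both treated groups lay above vehicle, Drug_0120 highest. IFIH1 read 2.99 and 2.78 TPM in the vehicle libraries, 1.17 and 1.41 TPM with Drug_0120, and 8.37 and 7.41 TPM with Drug_CN27. The 3 groups did not overlap, with Drug_0120 lowest and Drug_CN27 highest. For DDX58 the log2 changes were 1.66 ± 0.13 and 1.12 ± 0.13 (limma adjusted p = 3.66e-06 and 8.99e-05). IFIH1 changed by -0.76 ± 0.11 with Drug_0120 and by 1.19 ± 0.11 with Drug_CN27 (limma adjusted p = 0.000174 and 2.31e-05), and the direct difference between the compounds was 1.95 ± 0.11 (limma adjusted p = 8.67e-07).

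Of the tested antiviral effectors, ISG20, an exonuclease that degrades single-stranded RNA, rose most on the log2(TPM + 1) scale. It read 13.5 and 13.3 TPM in the vehicle libraries, 68.0 and 68.4 TPM with Drug_0120, and 44.1 and 50.2 TPM with Drug_CN27. Its level was 5.09 times that of vehicle with Drug_0120 and 3.52 times with Drug_CN27, and the 3 groups did not overlap (limma adjusted p = 3.28e-08 and 6.66e-07). MX1, a dynamin-like GTPase that blocks viral ribonucleoproteins, rose from 1.63 and 2.31 TPM to 3.22 and 3.30 TPM with Drug_0120 and to 4.84 and 4.83 TPM with Drug_CN27. IFI6, a small mitochondrial and endoplasmic reticulum protein, rose from 1.95 ± 0.652 TPM to 3.96 ± 0.455 and 4.73 ± 0.684 TPM. These were the 3 effectors called higher with both compounds, and MX1 and IFI6 stayed at or under 5.22 TPM in every library. An exon of AP001610.1 overlaps MX1 on the opposite strand.

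The IFITM proteins, which sit in membranes and hinder the fusion of enveloped viruses, were all lower with both compounds. IFITM1 read 13.5 and 15.2 TPM in the vehicle libraries, 0.756 and 0.873 TPM with Drug_0120, and 1.89 and 1.87 TPM with Drug_CN27. The vehicle libraries were far above all 4 treated libraries, at 17.6 times the level with Drug_0120 and 7.63 times that with Drug_CN27. The log2 changes were -3.08 ± 0.10 and -2.41 ± 0.10 (limma adjusted p = 3.21e-08 and 5.66e-07).

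IFITM2 read 62.9 and 64.6 TPM in the vehicle libraries, 16.3 and 13.8 TPM with Drug_0120, and 37.7 and 38.5 TPM with Drug_CN27. IFITM3 read 61.2 and 64.4 TPM, then 27.1 and 30.4 TPM, then 46.5 and 49.0 TPM. In both genes the groups did not overlap, with Drug_0120 lowest and Drug_CN27 between it and vehicle. IFITM1 shares 42.3% of its 50-base words with other annotated transcripts, mostly those of IFITM2, while IFITM2 shares 15.8% and IFITM3 20.3%. Annotated exons of IFITM1 and IFITM2 also overlap on the same strand. Reads could therefore be split among the 3 genes. The sum of the 3 genes does not depend on a split among them, and it read 141 ± 4.63 TPM in vehicle cells, 44.6 ± 0.621 TPM with Drug_0120 and 87.7 ± 2.35 TPM with Drug_CN27.

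OAS3, an antiviral enzyme that makes 2',5'-linked oligoadenylates on sensing double-stranded RNA, read 6.55 and 6.31 TPM in the vehicle libraries, 1.298 and 1.25 TPM with Drug_0120, and 4.73 and 5.28 TPM with Drug_CN27. Both treated groups lay below vehicle, by -1.71 ± 0.10 and -0.31 ± 0.10 on the log2 scale. The smaller fall, with Drug_CN27, was not called without vehicle replicate 1 (-0.28), without vehicle replicate 2 (-0.33) or without Drug_CN27 replicate 1 (-0.24). BST2, or tetherin, which holds budding viruses at the cell surface, read 1.41 and 1.68 TPM in vehicle and between 0.137 and 0.815 TPM in the 4 treated libraries. Its calls were lower with both compounds, at levels where it passed the filter through vehicle alone.

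IFI35, an interferon-induced leucine zipper protein, differed in direction between the compounds. It read 14.0 and 16.9 TPM in the vehicle libraries, 3.96 and 4.02 TPM with Drug_0120, and 26.5 and 27.6 TPM with Drug_CN27. The 3 groups were well apart, with log2 changes of -1.71 ± 0.10 and 0.78 ± 0.10, and the direct difference between the compounds was 2.49 ± 0.10 (limma adjusted p = 2.09e-07) on the log2(TPM + 1) scale. The ratio of the Drug_CN27 to the Drug_0120 level was 6.78.

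The 2 most abundant effectors were lower with Drug_0120. ISG15 read 162 and 174 TPM with Drug_0120, below both vehicle libraries, and 282 and 318 TPM with Drug_CN27, a range that overlapped vehicle. Its log2 change of -0.69 ± 0.07 with Drug_0120 was -0.02 and not called after the GC correction. With Drug_CN27 its log2 change of 0.14 was not called, but it was called higher without Drug_CN27 replicate 1, at 0.23, and after the GC correction, at 0.22. ADAR fell from 169 ± 8.70 to 131 ± 7.85 TPM with Drug_0120 (log2 change -0.37 ± 0.06), which was -0.09 and not called under quantile normalization, and read 184 ± 2.19 TPM with Drug_CN27, where it was not called.

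IFIT5, the RNA-binding IFIT protein that was measurable, read 1.70 and 2.07 TPM in the vehicle libraries, 0.861 and 0.573 TPM with Drug_0120, and 1.63 and 1.57 TPM with Drug_CN27, and was called lower with Drug_0120. With Drug_CN27 it was not called, but it was called lower after the GC correction (-0.48). IFI27, a mitochondrial membrane protein, read between 0.463 and 1.42 TPM in the 6 libraries and was not called against vehicle with either compound. For IFI27 the call turned to lower with Drug_0120 without vehicle replicate 2 (-0.45) or without either Drug_CN27 library (-0.32), and to higher with Drug_CN27 without Drug_CN27 replicate 1 (0.41). The remaining 9 effectors could not be tested. Among them IFIT2 was listed at 0.163 and 0.106 TPM in the vehicle libraries, 0.329 and 0.338 TPM with Drug_0120, and 1.03 and 0.842 TPM with Drug_CN27, while OASL was listed at 0.470 and 0.567 TPM, then 0.0877 and 0.0491 TPM, then 0.325 and 0.242 TPM. IFIT1 was listed at 0.347 and 0.216 TPM in vehicle and between 0 and 0.123 TPM in the treated libraries. These levels give no test, and an exon of LIPA overlaps IFIT2 on the opposite strand.

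Of the measured HLA class I heavy chains, HLA-B was called higher with both compounds and HLA-C with Drug_CN27. HLA-B, a classical heavy chain, read 28.0 and 30.5 TPM in the vehicle libraries, 49.98 and 54.6 TPM with Drug_0120, and 61.6 and 71.5 TPM with Drug_CN27. Both treated groups lay above vehicle, with log2 changes of 0.82 ± 0.09 and 1.16 ± 0.09 (limma adjusted p = 3.09e-05 and 9.51e-06). HLA-C, the classical heavy chain that also engages receptors on natural killer cells, read 97.9 and 101 TPM in the vehicle libraries, 105 and 114 TPM with Drug_0120, and 193 and 215 TPM with Drug_CN27. Its rise with Drug_CN27 was 1.03 ± 0.07 (limma adjusted p = 5.19e-06), and with Drug_0120 the 95% interval ran from -0.03 to 0.30.

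HLA-E, the non-classical molecule read by the inhibitory receptor NKG2A on natural killer cells, read 55.4 and 60.6 TPM in the vehicle libraries, 61.0 and 60.0 TPM with Drug_0120, and 61.0 and 63.0 TPM with Drug_CN27. The 6 libraries lay close together and no change was called, with intervals from -0.09 to 0.21 and from -0.05 to 0.25. Scaling mattered for Drug_0120 here. HLA-C was called higher with Drug_0120 under median-of-ratios scaling (0.26), quantile normalization (0.36) and the GC correction (0.71), and HLA-E was called higher under the same settings (0.18, 0.19 and 0.53). HLA genes vary widely between people and cell lines, so reads of an allele unlike the reference can be lost in mapping, and the treatment of alleles is not known here. Annotated exons of HLA-B and HLA-C also overlap on the same strand, so reads could be split between these genes.

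B2M, the light chain, read 240 and 201 TPM in the vehicle libraries, 339 and 432 TPM with Drug_0120, and 241 and 167 TPM with Drug_CN27. The Drug_0120 libraries lay above all others, while Drug_CN27 and vehicle overlapped. The log2 change was 0.80 ± 0.17 with Drug_0120 (limma adjusted p = 0.00244) and -0.13 ± 0.17 with Drug_CN27. Per library, B2M stood at 1.32 and 1.05 times the summed level of HLA-B, HLA-C and HLA-E in vehicle, 1.57 and 1.89 times with Drug_0120, and 0.762 and 0.478 times with Drug_CN27. This ratio of light chain to measured heavy chains did not overlap between the groups, and scaling all genes of a library by 1 factor leaves it as it is. A GC correction does not, since it moves these genes unequally. After it, the log2 changes with Drug_0120 were 0.70 for B2M, 1.34 for HLA-B, 0.71 for HLA-C and 0.53 for HLA-E, against 0.80, 0.82, 0.14 and 0.06 without it. The ratio with Drug_0120 is therefore uncertain in this respect.

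The transporter subunits TAP1 and TAP2 did not move together. TAP1 read 28.6 and 28.9 TPM in the vehicle libraries, 28.3 and 25.5 TPM with Drug_0120, and 42.5 and 43.4 TPM with Drug_CN27, and was called higher with Drug_CN27 (log2 change 0.56 ± 0.07, limma adjusted p = 0.000171). With Drug_0120 its log2 change of -0.10 was not called, but after the GC correction it turned to 0.17 and was called higher (limma adjusted p = 0.0252). TAP2 read 11.7 and 12.5 TPM in the vehicle libraries, 4.58 and 3.62 TPM with Drug_0120, and 9.70 and 8.76 TPM with Drug_CN27. It lay below vehicle with both compounds, at -1.36 ± 0.11 with Drug_0120 and -0.35 ± 0.11 with Drug_CN27, and the second fall was not called without vehicle replicate 2 (-0.31) or without Drug_CN27 replicate 2 (-0.29), nor with no filter on low values (adjusted p = 0.0522 in limma). TAP2 shares 35.8% of its 50-base words with the longer annotated gene AL669918.1, and PSMB8-AS1 overlaps TAP1 on the opposite strand, so both levels carry that uncertainty.

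TAPBP read 34.0 and 34.4 TPM in the vehicle libraries, 36.0 and 38.2 TPM with Drug_0120, and 67.7 and 65.2 TPM with Drug_CN27. Its Drug_CN27 level was 1.95 times that of vehicle (limma adjusted p = 5.36e-06). With Drug_0120 the interval ran from -0.03 to 0.26, and TAPBP was called higher with median-of-ratios scaling (0.23), quantile normalization (0.19) and the GC correction (0.67). NLRC5 read 0.107 and 0.268 TPM in the vehicle libraries, 1.72 and 1.87 TPM with Drug_0120, and 0.238 and 0.182 TPM with Drug_CN27. Only the Drug_0120 libraries passed 1 TPM, with a log2 change of 1.24 ± 0.11 on a scale that understates the change of such low levels.

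**Figure D4:**
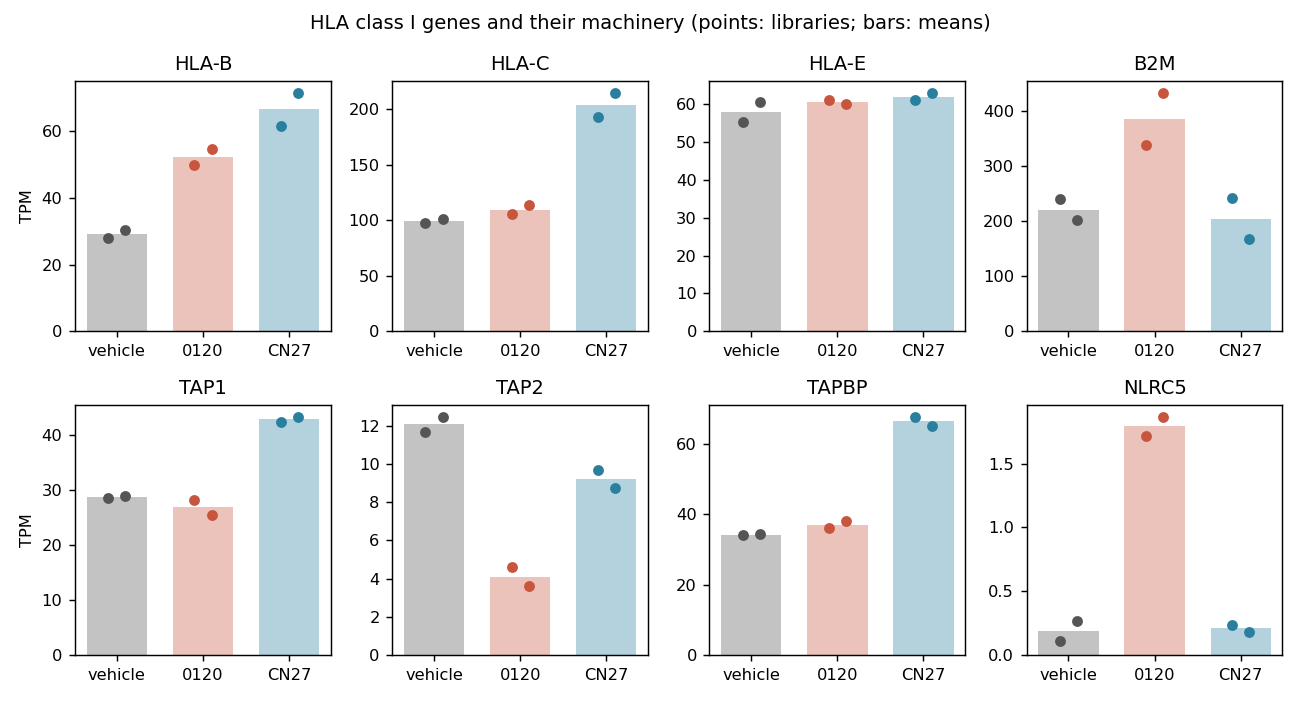
Level in TPM of the 8 genes of HLA class I and its machinery, with a point for each library and bars for the means of 2 libraries. HLA-C, TAP1 and TAPBP stand highest with Drug_CN27, B2M and NLRC5 stand highest with Drug_0120, and TAP2 stands lowest with Drug_0120. NLRC5 met the filter for testing through Drug_0120 alone.

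ISG20, MX1 and IFI6 are set beside HLA class I because they were called higher with both compounds, so their direction here is a description. Each of them was below 14 TPM in both vehicle libraries, and HLA-B, HLA-C and HLA-E each read 28.0 TPM or more there. HLA-B was called higher with both compounds too, and IFI35, an effector, rose with Drug_CN27 as HLA-C did. Summed, the 3 heavy chains read 187 ± 7.73 TPM in vehicle. The summed level of the 22 effectors was 627 ± 12.5 TPM in vehicle, 426 ± 0.692 TPM with Drug_0120 and 666 ± 32.7 TPM with Drug_CN27, and ISG15 and ADAR made up most of it. The sum of HLA-B, HLA-C and HLA-E read 222 ± 8.53 TPM with Drug_0120 and 333 ± 23.6 TPM with Drug_CN27, without overlap between the groups. Over the 8 genes of HLA class I and its machinery, the sum read 495 and 470 TPM in the vehicle libraries, 625 and 730 TPM with Drug_0120, and 677 and 634 TPM with Drug_CN27. Both treated groups were above vehicle in this sum. B2M was the largest part of the difference with Drug_0120, and HLA-C and HLA-B were the largest parts with Drug_CN27.

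In the direct comparison, 21 of the 29 tested genes were higher with Drug_CN27 than with Drug_0120 and 4 were lower, where 51.7% of all tested genes were called higher and 23.5% lower, or 75.2% in either direction. At least 2-fold, 5 were higher and 1 was lower, against 17.7% and 3.97%. Quantile normalization gave 13 higher and 5 lower, where 5098 and 5190 of all 13606 tested genes were called. The GC correction gave 14 higher and 8 lower, where 5155 and 5624 of 13504 genes were called. Median-of-ratios scaling gave 15 higher and 6 lower, where 5101 and 5254 of 13606 genes were called. The median of all tested genes was itself 0.26 in this comparison, and the relative class medians were 0.14 for regulators, 0.35 for effectors and 0.24 for HLA class I. The GC correction gave 0.07 for regulators and 0.12 for HLA class I. The 4 lower genes were DDX58, ISG20, B2M and NLRC5. NLRC5 was also the 1 gene lower by at least 2-fold. It met the filter through Drug_0120 alone, so it had to differ in this comparison. Since doses may differ, these differences are between the treatments as given.

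Genes with the ISRE core were called in both directions. Among the tested genes with a promoter given, those with a match numbered 4 higher, 8 lower and 3 not called with Drug_0120, and 6, 5 and 4 with Drug_CN27. Of all tested genes, 36% were called higher and 45.5% lower with Drug_0120, and 43.7% and 26.6% with Drug_CN27. Those without a match numbered 4, 2 and 2 with Drug_0120, and 6 higher, none lower and 2 not called with Drug_CN27. ISG20 and IFITM1, whose promoters are printed above, both hold the core written as GAAACTGAAA and moved in opposite directions with both compounds. BST2, which met the filter through vehicle alone, is among the genes with a match called lower with both compounds. These counts describe the genes and were not tested.

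Other genes of the same pathway were taken from lists that hold none of the 38, and their counts stand beside 36% of all tested genes called higher and 45.5% lower with Drug_0120, and 43.7% and 26.6% with Drug_CN27. No interferon ligand could be tested, since the 9 on the list stayed at or under 0.577 TPM in every library. All 9 interferon receptors and their kinases were tested. With Drug_0120 5 rose and 4 fell, and with Drug_CN27 7 rose and 1 fell. IFNGR1, a chain of the interferon gamma receptor, rose from 27.8 ± 0.613 TPM to 86.7 ± 0.499 TPM with Drug_0120 and 43.3 ± 2.77 TPM with Drug_CN27. Its partner IFNGR2 rose from 37.4 ± 0.777 TPM to 48.7 ± 3.12 and 80.02 ± 1.92 TPM, and the kinase JAK1 from 2.96 ± 0.105 TPM to 10.8 ± 0.163 and 6.54 ± 0.564 TPM. IFNAR2, a chain of the type I receptor, fell from 18.9 ± 0.145 TPM to 9.35 ± 0.475 and 13.2 ± 1.12 TPM.

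Of 18 genes of nucleic acid sensing and signalling, 12 were tested. With Drug_0120 7 rose and 4 fell, and with Drug_CN27 6 rose and 2 fell. TANK, a scaffold of the kinases that activate IRF3, rose from 10.7 ± 0.135 TPM to 29.97 ± 0.512 and 19.8 ± 0.836 TPM. IKBKE, such a kinase itself, fell from 8.18 ± 0.612 TPM to 0.835 ± 0.282 and 2.54 ± 0.0559 TPM. MYD88, the adaptor of most Toll-like receptors, fell from 23.2 ± 0.53 to 5.94 ± 0.393 TPM with Drug_0120 and read 23.1 ± 0.264 TPM with Drug_CN27.

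Of 10 tested negative regulators and genes of nucleic acid clearance, 2 rose and 7 fell with Drug_0120, and 3 rose and 2 fell with Drug_CN27. SOCS1, an inhibitor of JAK kinases, rose from 0.95 ± 0.0813 to 16.7 ± 1.43 TPM with Drug_0120, and read 1.41 ± 0.568 TPM with Drug_CN27, where it was called higher only without Drug_CN27 replicate 2 (log2 change 0.53). USP18, which removes ISG15 from proteins and restrains the type I receptor, fell from 21.8 ± 1.67 TPM to 4.96 ± 0.148 and 13.1 ± 0.00376 TPM. RNASEH2A, the catalytic subunit of the enzyme that clears RNA from DNA hybrids, fell from 84.6 ± 4.26 TPM to 21.4 ± 0.302 and 62.4 ± 5.96 TPM.

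Of 44 other interferon-stimulated genes, 27 were tested. With Drug_0120 6 rose and 15 fell, and with Drug_CN27 14 rose and 6 fell, where the rise count was 9 after the GC correction. These are shares of tested genes to set beside 36% higher and 45.5% lower with Drug_0120 and 43.7% and 26.6% with Drug_CN27 over all genes. Of the 27 genes, 2 met the filter through vehicle alone and were called lower with both compounds. Another 1 met it through Drug_CN27 alone and was called higher with it. These 3 had to differ in the comparisons named. LY6E, a surface protein that alters virus entry, fell from 35.1 ± 4.82 TPM to 3.13 ± 0.412 and 12.5 ± 0.934 TPM. UBE2L6, the conjugating enzyme for ISG15, read 2.95 ± 0.136 TPM in vehicle cells, 0.0705 ± 0.0266 TPM with Drug_0120 and 0.729 ± 0.194 TPM with Drug_CN27, and it is among the genes that met the filter through vehicle alone. PARP9 and PARP14, members of the ADP-ribosyltransferase family, read 16.9 ± 1.07 and 14.0 ± 0.837 TPM in the vehicle libraries and 3.56 ± 0.105 and 2.76 ± 0.275 TPM with Drug_0120, and both were called lower. Their small rises with Drug_CN27 (log2 changes 0.29 and 0.32) were not called without vehicle replicate 2 (0.23 and 0.26) or without Drug_CN27 replicate 1 (0.23 and 0.30 in the same order), nor under median-of-ratios scaling (0.12 and 0.15), quantile normalization (0.13 and 0.15) or the GC correction (0.036 and 0.059). WARS1, a tryptophanyl-tRNA synthetase that interferon gamma induces, rose from 92.2 ± 0.176 to 229.7 ± 4.99 TPM with Drug_CN27 and read 89.4 ± 0.282 TPM with Drug_0120, where it was called higher under quantile normalization (0.16).

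The immunoproteasome is the proteasome form that prepares peptides for HLA class I. Of the 5 tested genes of the immunoproteasome and its activator, 4 fell and none rose with Drug_0120, and 2 rose and 2 fell with Drug_CN27. PSME1 and PSME2, the subunits of the activator PA28, fell from 226 ± 3.61 to 56.0 ± 2.80 TPM and from 144 ± 4.45 to 50.1 ± 3.95 TPM with Drug_0120. With Drug_CN27 they read 195 ± 4.09 and 132 ± 3.67 TPM, with PSME1 called lower except without vehicle replicate 2 (-0.20). PSME2 was not called with Drug_CN27, but it was called lower under median-of-ratios scaling (-0.30), after the GC correction (-0.24) and with a replicate block (-0.12). Of the catalytic subunits, PSMB10 fell from 21.4 ± 0.873 TPM to 12.4 ± 0.861 and 12.5 ± 0.796 TPM. PSMB9 fell from 4.25 ± 0.346 to 1.53 ± 0.655 TPM with Drug_0120. Its level of 6.28 ± 0.179 TPM with Drug_CN27 was called higher, at a log2 change of 0.47 that was not called without vehicle replicate 1 (0.41), Drug_CN27 replicate 1 (0.50) or Drug_CN27 replicate 2 (0.45). Nor was it called under median-of-ratios scaling (0.32), quantile normalization (0.29), the GC correction (0.33), a pseudocount of 0.1 (0.55) or no filter (0.47). PSMB8 rose from 2.13 ± 0.127 to 3.62 ± 0.132 TPM with Drug_CN27 and read 2.27 ± 0.0517 TPM with Drug_0120, where it was called higher under quantile normalization (0.35) and after the GC correction (0.28).

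Of 7 tested genes of peptide loading and trimming, 1 rose and 1 fell with Drug_0120, and 3 rose and 3 fell with Drug_CN27. CALR, the chaperone calreticulin, fell from 1714 ± 4.72 TPM to 1005 ± 6.17 and 840.0 ± 26.4 TPM. ERAP1, which trims peptides in the endoplasmic reticulum, rose from 4.14 ± 0.457 to 8.49 ± 0.544 TPM with Drug_CN27 and read 4.12 ± 0.0822 TPM with Drug_0120, where it was called higher under quantile normalization (0.30). Of 7 tested RFX proteins and partner factors that bind HLA promoters, 2 rose and 3 fell with Drug_0120, and 3 rose and 1 fell with Drug_CN27. RFX5 fell from 43.9 ± 1.16 to 11.4 ± 0.927 TPM with Drug_0120 and read 42.6 ± 0.907 TPM with Drug_CN27, where it was not called, except as lower under median-of-ratios scaling (-0.22). RFXAP rose from 6.91 ± 0.282 TPM to 11.7 ± 0.712 and 19.98 ± 1.397 TPM, and RFXANK fell from 72.4 ± 5.45 TPM to 35.1 ± 2.33 and 58.3 ± 1.67 TPM. The fall of RFXANK with Drug_CN27 was not called without vehicle replicate 2 (-0.23). Only 3 of the 10 genes of HLA class II and its activator CIITA were tested, of which 1 rose and 2 fell with Drug_0120 and 2 fell with Drug_CN27.

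**Figure D5:**
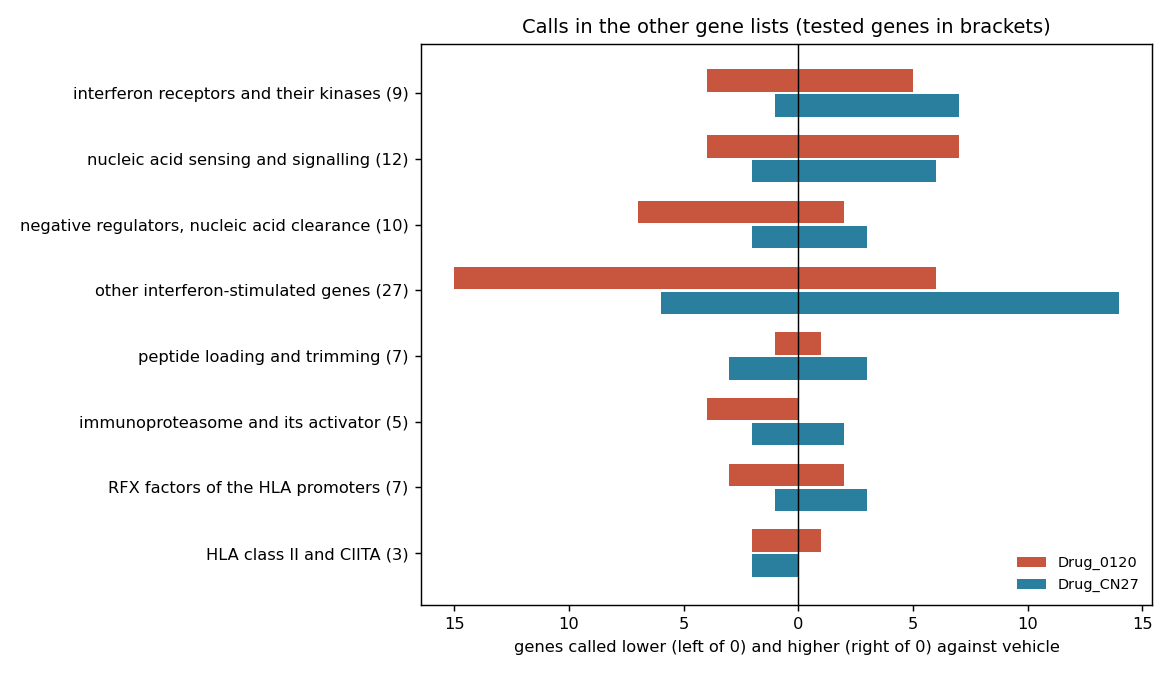
Number of genes called lower (left of 0) and higher (right of 0) against vehicle in each of 8 other gene lists, with Drug_0120 in red and Drug_CN27 in blue and the number tested in brackets. The other interferon-stimulated genes show 15 lower and 6 higher with Drug_0120, and 6 lower and 14 higher with Drug_CN27.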

How the data were processed

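Polyadenylated RNA of 22Rv1 cells was sequenced in 6 libraries, 2 in each of 3 groups, with groups and replicate numbers taken from the labels. The authors deposited TPM per gene. Per the submitters' processing notes, STAR, StringTie and hg19 were used. Their versions, the annotation and the strand setting were not given in the sources used here. Of 20315 table rows, 18 duplicates of pseudoautosomal genes were dropped. TPM keeps no depth and is relative to a library's total, so a change in other genes moves every value.

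A gene was tested if 2 or more libraries held 1 TPM or more, which 13606 genes met. The test was on log2(TPM + 1), a scale that understates changes of low genes, by limma 3.58.1 in R 4.3.3 (mean-variance trend, all 6 libraries in 1 fit, no replicate block). Benjamini-Hochberg adjustment covered all tested genes, and changes under 0.05 were called. The fit has 3 residual and 5.33 prior degrees of freedom, and it was tested on simulated data. The 38 genes, the 9 other gene lists and the marker lists were chosen with earlier results of these data known. All 38 genes are named. Genes named from the other lists were among the 3 strongest calls in a direction and comparison, and not every such gene is reported here, though list counts include them all. GC content and 50-base words shared between transcripts came from GENCODE release 29. Alternatives were pseudocounts of 0.1 and 0.5, no filter, a mean of at least 5 TPM, median-of-ratios scaling, quantile normalization, a GC correction, a replicate block, only the groups compared, no trend, and leaving out each library. A change called in neither setting counts as kept.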

Additional observations from a re-analysis of the deposited data

How the results depend on the processing

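Of 2550 log2 changes of named genes recomputed under the alternatives, 2441 kept their direction and side of the threshold, 58 lost the call, 37 gained one and 14 reversed. Against vehicle with Drug_0120, the reversals were IRF3 (0.054, not called) and TAP1 (0.17, called higher) after the GC correction and WARS1 (0.16) and ERAP1 (0.30), both called higher, under quantile normalization. Between Drug_CN27 and Drug_0120 they were IRF7 (-0.28), STAT2 (-0.037), HLA-B (-0.15), HLA-E (-0.41) and PSMB10 (-0.53) after the GC correction, STAT2 (-0.088), HLA-E (-0.26) and PSMB10 (-0.27) under median-of-ratios scaling, and MX1 (-0.049) and PSMB10 (-0.32) under quantile normalization. Median-of-ratios scaling takes out a shift shared by all genes, and for the others the cause was not tested. It gave 5564 higher and 5641 lower calls over all genes with Drug_0120, 4503 and 4809 with Drug_CN27, and 5101 and 5254 between the compounds, against 4903 and 6189, 5948 and 3624, and 7034 and 3200 on TPM as deposited.

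Of the 29 tested genes of the set, those higher with Drug_0120 numbered 7 in place of 11 with a mean of at least 5 TPM, where fewer genes were tested. Those higher with Drug_CN27 than with Drug_0120 numbered 13 in place of 21 under quantile normalization, and those lower 8 in place of 4 after the GC correction. Counts over all tested genes moved too. With a mean of at least 5 TPM, 4033 of 10778 genes were higher with Drug_0120, in place of 4903 of 13606. Between the compounds, 5098 were higher in place of 7034 under quantile normalization, and 5624 lower in place of 3200 after the GC correction. Leaving out a library leaves 1 library in its group, so the counts of the set in those fits are not given here. In the other lists, small counts moved more: with Drug_0120, falling receptors from 4 to 2 and rising negative regulators from 2 to 4 after the GC correction, and rising peptide-loading genes from 1 to 3 under quantile normalization and to 0 without the trend or without any 1 of the vehicle and Drug_0120 libraries. With Drug_CN27 the moves were other interferon-stimulated genes from 14 to 9 higher after the GC correction and from 6 to 3 lower with a mean of at least 5 TPM, falling negative regulators from 2 to 4 and rising RFX factors from 3 to 1 under median-of-ratios scaling, and rising immunoproteasome genes from 2 to 1 under 5 alternatives that keep all libraries and 0 with a mean of at least 5 TPM. The other counts against vehicle in these lists that moved were of 4 genes or fewer and moved by at most 2. After the GC correction 4958 of 13504 tested genes were higher with Drug_CN27, in place of 5948 of 13606.

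Replicate numbers do not pair the samples in the labels, and deviations of same-numbered libraries correlated at 0.164, 0.15 and 0.11 over genes in the 3 comparisons. With a replicate block, 12 genes of the set were higher and 12 lower with Drug_0120, 16 and 6 with Drug_CN27, and 21 and 4 between the compounds. Of all 13606 tested genes, 5143 were then higher and 6383 lower with Drug_0120, and 6369 and 3915 with Drug_CN27. Between the compounds 7366 and 3528 were called, and each of these all-gene counts was larger than without the block. HLA-C with Drug_0120 and ISG15 and ADAR with Drug_CN27 gained a call. The limits are 2 libraries a group, the unknown depth, doses that may not match, low levels of many antiviral effectors, and close copies of the IFITM, IRF9, TAP2 and HLA genes.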
